A study of Mus musculus with 16 samples.

Results

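The miRNAs described here are the mature products of the miR-219 and miR-338 hairpins that were measured in the lateral ventricle (LV) wall, namely mmu-miR-219a-5p, mmu-miR-219a-2-3p, mmu-miR-338-3p and mmu-miR-338-5p. They were taken by name from the arrays and not by a rule on measured values, although earlier results of these data were known. They are 4 of the 1881 mature mouse miRNAs on the array and 4 of the 495 that were tested. MiRNA levels were compared between 8 WT littermates and 8 Dgcr8+/- mice, which carry 1 working copy of Dgcr8 in every cell. All mice were males aged 8 months, and per the methods the line was backcrossed onto C57BL/6J. The LV wall is a mixed tissue, with ciliated ependymal cells, progenitors, glia, nearby myelin, neurons and vessels, and no cell type was isolated. Fewer cells of a type and less of a miRNA per cell can therefore not be told apart. The arrays do not measure the Dgcr8 mRNA, so the genotype labels were not checked against it.

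Dgcr8 is the RNA-binding partner of the nuclease Drosha, and together they cut the hairpins of most miRNAs out of their long primary transcripts. Dicer then cuts the hairpin and leaves a duplex of a 5p arm and a 3p arm, either of which can be loaded into the silencing complex. MiR-219 and miR-338 are enriched in oligodendrocytes, the myelinating glia of the brain, where miR-219 represses genes that hold the precursors back, such as Pdgfra and Sox6, and promotes their differentiation. MiR-338-3p is in addition known as a regulator of the dopamine receptor Drd2 in the thalamus of mice that lack 1 copy of Dgcr8. MiR-219a-5p can be made from both Mir219a-1 and Mir219a-2, whereas miR-219a-2-3p comes from Mir219a-2 alone, and both miR-338 arms come from Mir338.

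The mature sequences of 3 of the 4 members were matched in the RefSeq tables and are shown because the seeds separate the arms that the comparisons set side by side. Capitals mark the seed, bases 2 to 8 from the 5′ end.
miR-219a-5p: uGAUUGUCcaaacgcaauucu
miR-338-3p: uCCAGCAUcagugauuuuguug
miR-338-5p: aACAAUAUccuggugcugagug
No seed was shared between these 3 members, and none was shared with any other of the 1679 mature mouse miRNAs in the table. In the GRCm38.p6 build, miR-219a-5p lies on the minus strand at chr2:29845689-29845709, inside Mir219a-2, and at chr17:34025052-34025072, inside Mir219a-1. The 21 bases are the same at both loci, so the array cannot tell which hairpin a miR-219a-5p molecule came from. Mir219a-2 lies within Cercam, and Mir219a-1 lies between Ring1 and H2-Ke6. MiR-338-3p lies on the minus strand at chr11:120014781-120014802 and miR-338-5p at chr11:120014816-120014837, both in the hairpin Mir338 within Aatk.

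The opposite strand of each of these loci also holds an annotated miRNA, and 2 of them are printed because they are nearly the exact reverse complement of a member.
miR-219b-3p: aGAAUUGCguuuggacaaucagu
miR-3065-5p: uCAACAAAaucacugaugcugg
MiR-219b-3p pairs with miR-219a-5p over 21 bases, and miR-3065-5p pairs with miR-338-3p over 21 bases. The array carries probes for 7 related entries, namely the other arm of Mir219a-1, miR-219a-1-3p, and the opposite-strand products miR-219b-5p, miR-219b-3p, miR-219c-5p, miR-219c-3p, miR-3065-5p and miR-3065-3p, and each was detected on 0 of 16 arrays. The 4 members were each detected on all 16 arrays. On the miR-219a-1 hairpin, the 3p arm was thus below detection in both genotypes, as were all products of the opposite strands.

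A log2 signal is the log2 of the background-corrected fluorescence after quantile normalization, and a log2 fold change is Dgcr8+/- minus WT. Before normalization the Dgcr8+/- arrays were dimmer, with summed miRNA signals of 18528866 to 23440575 against 21545358 to 29763412 in WT (2-sided exact permutation test, p = 0.0042), and 467 to 492 detected miRNAs against 495 to 540. Quantile normalization gives all arrays the same distribution of signals, so each fold change is a shift against the rest of the miRNAs on that array. Of the 495 tested miRNAs, limma called 138 lower (27.9%) and 140 higher (28.3%) in Dgcr8+/- mice at the adjusted threshold of 0.05, with a median log2 fold change of 0.04. Slide 1 held 6 WT and 2 Dgcr8+/- arrays, and slide 2 held 2 WT and 6 Dgcr8+/- arrays.

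After quantile normalization, miR-219a-2-3p was the only member past the threshold. Its log2 signal had a lowest value of 8.28, a median of 8.49 and a highest value of 8.88 in WT mice, and 8.63, 8.91 and 8.97 in Dgcr8+/- mice. All 8 Dgcr8+/- mice lay above the WT median, but the groups overlapped, because WT replicates 5 and 7, at 8.88 and 8.79, lay within the Dgcr8+/- range. The mean was 8.54 ± 0.21 (SD, n = 8) in WT and 8.83 ± 0.15 (SD, n = 8) in Dgcr8+/- mice. The log2 fold change was 0.29 (standard error 0.087, 95% interval 0.11 to 0.48, adjusted p = 0.00887 from limma), a signal 22.5% higher, and it turned to −0.26 when the arrays were not normalized. The member that stood out changed with the scaling. Without normalization, miR-338-3p lay at −0.25 from the median of all tested miRNAs and miR-219a-2-3p at 0.13. After quantile normalization, both probes of miR-219a-2-3p moved the same way, by 0.32 and 0.27. Its difference was 0.27 on slide 1 and 0.27 on slide 2. Taken within 1 slide, with 2 mice in 1 of the groups, it was not past the threshold (adjusted p = 0.184 on slide 1 and 0.134 on slide 2 from limma).

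MiR-219a-5p, the arm that carries most of the known miR-219 function in oligodendrocytes, did not pass the test. Its log2 signal had a lowest value of 12.26, a median of 12.54 and a highest value of 12.92 in WT mice, and 12.37, 12.78 and 12.89 in Dgcr8+/- mice. The groups overlapped over most of their range, and 6 of 8 Dgcr8+/- mice lay above the WT median. The mean was 12.58 ± 0.22 (SD, n = 8) in WT and 12.71 ± 0.19 (SD, n = 8) in Dgcr8+/- mice, a log2 fold change of 0.13 (standard error 0.098, 95% interval −0.08 to 0.34, adjusted p = 0.259 from limma). Its interval still contained the fold change of miR-219a-2-3p. With each array scaled to its 75th percentile instead, the log2 fold change was 0.23 (adjusted p = 0.0477 from limma), and without normalization it was −0.30 (adjusted p = 0.127 from limma).

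MiR-338-3p, the arm linked to Drd2, did not pass the test either. Its log2 signal had a lowest value of 11.44, a median of 11.61 and a highest value of 11.90 in WT mice, and 11.28, 11.54 and 11.77 in Dgcr8+/- mice. The groups overlapped, with 2 of 8 Dgcr8+/- mice below every WT mouse. The mean was 11.64 ± 0.13 (SD, n = 8) in WT and 11.53 ± 0.16 (SD, n = 8) in Dgcr8+/- mice, a log2 fold change of −0.11 (standard error 0.074, 95% interval −0.26 to 0.05, adjusted p = 0.227 from limma). Both probes gave negative differences, −0.07 and −0.12. Without normalization, the difference was −0.64 and past the threshold (adjusted p = 0.00136 from limma).

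MiR-338-5p did not pass the test, but its call changed with 1 array and with the scaling. Its log2 signal had a lowest value of 4.10, a median of 4.23 and a highest value of 4.52 in WT mice, and 3.72, 4.10 and 4.57 in Dgcr8+/- mice. Of the Dgcr8+/- mice, 7 of 8 lay below the WT median and 4 lay below every WT mouse, but Dgcr8+/- replicate 2 had the highest value of all 16 mice. The mean was 4.24 ± 0.12 (SD, n = 8) in WT and 4.09 ± 0.26 (SD, n = 8) in Dgcr8+/- mice, a log2 fold change of −0.14 (standard error 0.096, 95% interval −0.35 to 0.07, adjusted p = 0.213 from limma). Without Dgcr8+/- replicate 2 it was −0.21 (adjusted p = 0.025 from limma), and with array weights −0.19 (adjusted p = 0.0317 from limma). Without normalization it was −0.53 (adjusted p = 0.00112 from limma) and with spike-in scaling −0.52 (adjusted p = 0.00365 from limma). The array of Dgcr8+/- replicate 2 had the lowest median signal before normalization, a log2 value of 5.27, while the other Dgcr8+/- arrays had 5.57 to 5.91. Its hybridization spike-ins were also the dimmest, at a log2 signal of 12.71 against 13.91 to 15.05 on the other arrays. Its labelling spike-ins, at 9.95, were the lowest of all 16 arrays. The part of this array in the result was not tested. On slide 1, which holds that mouse, the difference was 0.13, and on slide 2 it was −0.17, and with the slide as a block it was −0.02 (adjusted p = 0.86 from limma). The 4 probes of miR-338-5p were uneven. A probe lay at the floor of 1 signal unit on all arrays and another at a mean log2 signal of 0.31 in both genotypes, while the other two gave differences of −0.10 and −0.16. The coefficient of variation was taken only for probes with a mean above 10 signal units on every array, for miR-338-5p 2 of its 4 probes. Its median over the spots of a probe was 11.7% for miR-338-5p, against 4.18% for miR-219a-5p, 6.51% for miR-219a-2-3p and 4.88% for miR-338-3p.

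**Figure D1:**
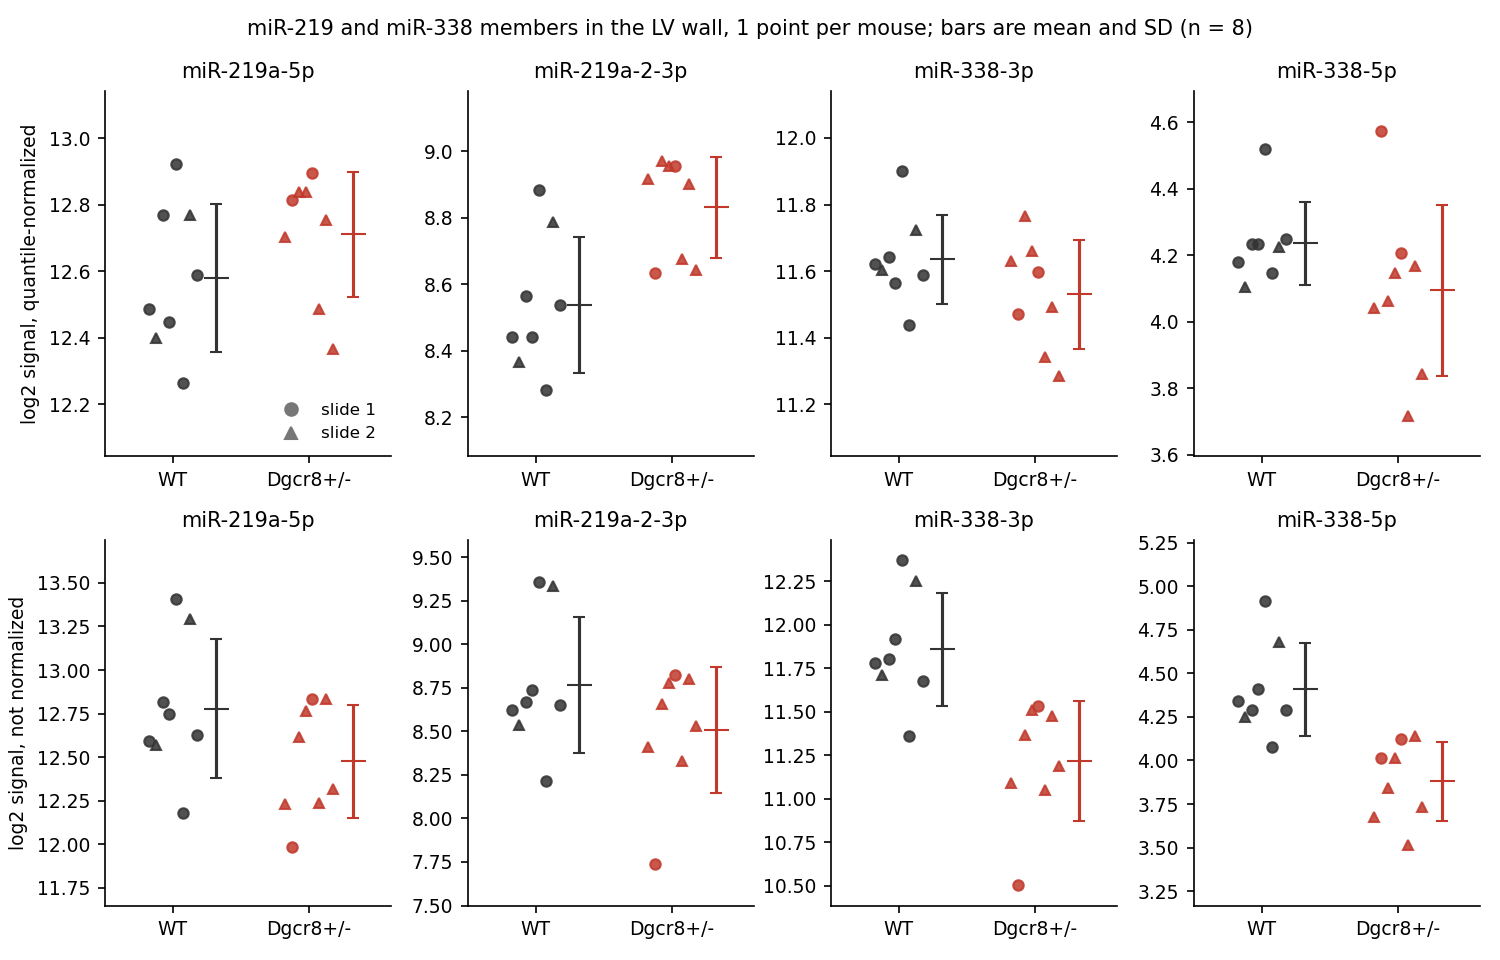
Log2 signal of the 4 members in each mouse, after quantile normalization (top row) and without normalization between arrays (bottom row). Points are mice, circles slide 1 and triangles slide 2, and the horizontal mark and bar give the mean and SD of 8 mice. In the top row the Dgcr8+/- mice lay at 8.63 to 8.97 for miR-219a-2-3p against a WT median of 8.49, whereas in the bottom row all 4 members had lower Dgcr8+/- means, including both miR-219 arms.

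Among the 495 tested miRNAs ordered from the lowest fold change, miR-338-5p was at position 156, miR-338-3p at 177, miR-219a-5p at 296 and miR-219a-2-3p at 390. Thus 1 of the 4 members was higher and 0 were lower at the adjusted threshold, against 28.3% higher and 27.9% lower among all tested miRNAs. No member's groups separated fully, whereas the groups did not overlap for 17.2% of the tested miRNAs in the lower direction and 7.07% in the higher direction. The median log2 fold change of the 4 members was 0.01, near the 0.04 of all tested miRNAs. The fold change of miR-219a-2-3p lay just above the upper quartile of all tested miRNAs, 0.27, and the other 3 lay between the quartiles of −0.27 and 0.27.

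**Figure D2:**
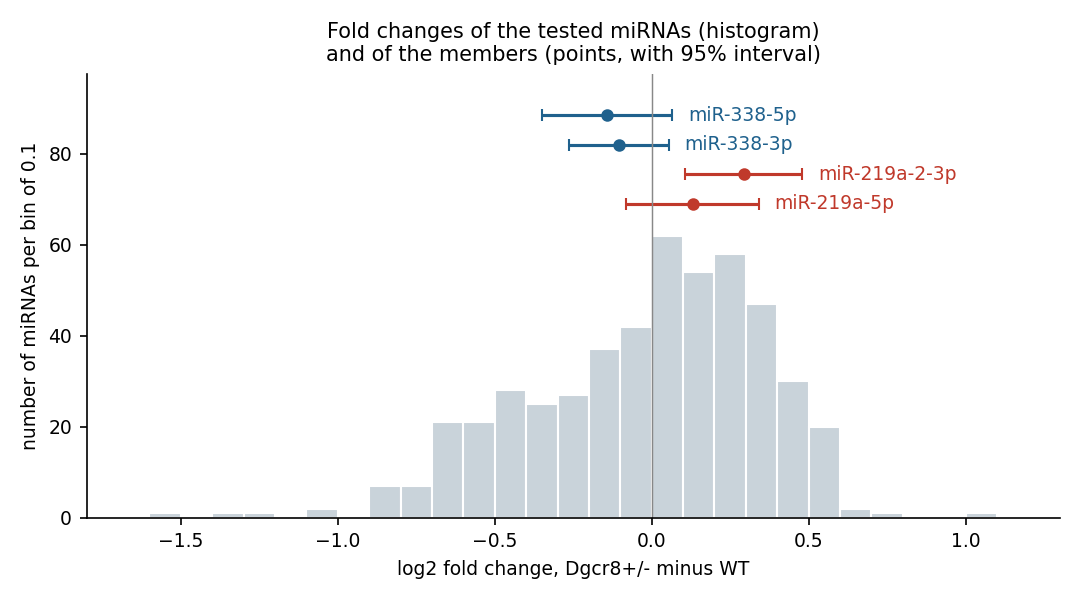
Distribution of the log2 fold change (Dgcr8+/- minus WT) over the 495 tested miRNAs (histogram, number per bin of 0.1), with the 4 members as points and their 95% intervals; the height of the points has no meaning. The interval of miR-219a-2-3p, 0.11 to 0.48, lay above 0 and those of the other 3 members crossed 0, and without normalization both miR-219 fold changes were negative.

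Since the members were measured on the same array, a ratio of 2 members within a mouse does not depend on any factor that scales a whole array. All 6 pairs were compared, the 4 ratios of a miR-219 to a miR-338 arm being a comparison added after the data were seen, with each mouse's log2 ratio set against the WT mean. The ratio of miR-219a-2-3p to miR-338-3p ranged from −0.14 to 0.16 in WT mice and from 0.26 to 0.51 in Dgcr8+/- mice. All 8 Dgcr8+/- mice lay above every WT mouse, and the means differed by 0.40 on the log2 scale, or 1.32-fold (standard error 0.045, 95% interval 0.30 to 0.49, exact permutation p = 0.000155, which is the minimum for these 16 mice, and 0.000932 after Benjamini-Hochberg adjustment over the 6 pairs). The groups did not overlap for 23.8% of all 122265 pairs of tested miRNAs, and for 19.8% of the 494 pairs that contain miR-219a-2-3p and 5.26% of the 494 that contain miR-338-3p. Such a separation was thus not rare over all pairs or among those with miR-219a-2-3p, and was less frequent among those with miR-338-3p.

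The other miR-219 arm was compared in the same way. The ratio of miR-219a-5p to miR-338-3p was higher in Dgcr8+/- mice by 0.24 (standard error 0.057, exact permutation p = 0.00124, adjusted p = 0.00373), with WT mice from −0.15 to 0.18 and Dgcr8+/- mice from 0.13 to 0.40. These groups overlapped only in a narrow range. Against miR-338-5p, the ratio was higher by 0.27 for miR-219a-5p (exact permutation p = 0.00699, adjusted p = 0.0105) and by 0.44 for miR-219a-2-3p (exact permutation p = 0.00357, adjusted p = 0.00715). In both of these ratios Dgcr8+/- replicate 2 was the lowest of the 8 Dgcr8+/- mice, at −0.10 and −0.24, and lay among the WT mice. Without normalization, and equally with 75th percentile or spike-in scaling, these 2 ratios to miR-338-5p differed by 0.22 and 0.27 and were not past the threshold (adjusted p = 0.111 for both, exact permutation). That of miR-219a-5p to miR-338-5p was not past it either with normexp (0.15, adjusted p = 0.142, exact permutation) or with the slide as a block (0.20, adjusted p = 0.067, exact permutation).

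**Figure D3:**
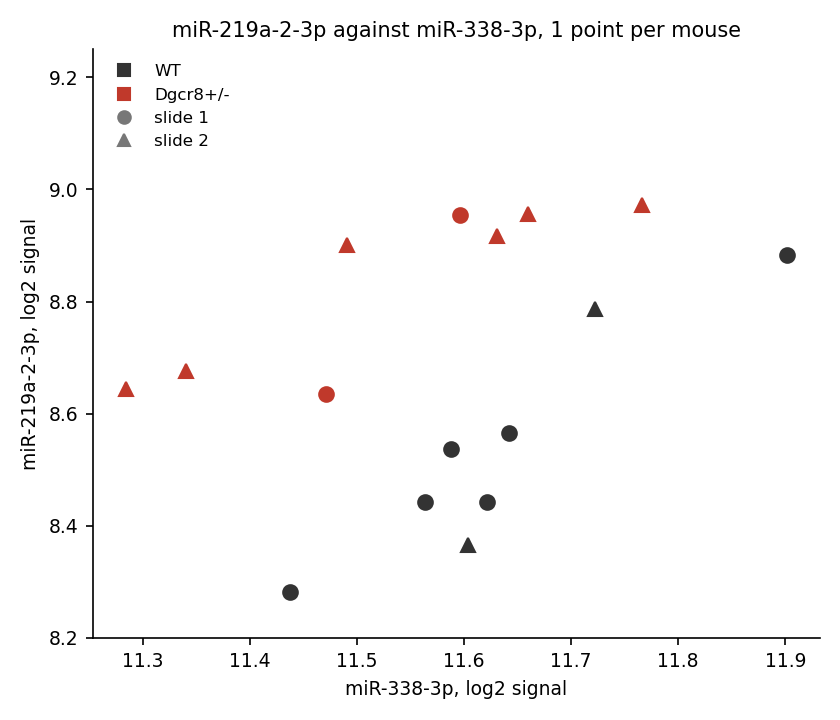
Log2 signal of miR-219a-2-3p (vertical) against that of miR-338-3p (horizontal), 1 point per mouse, circles slide 1 and triangles slide 2. At a given miR-338-3p signal the Dgcr8+/- mice lay above the WT mice, with mean log2 ratios 0.40 apart.

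The 2 arms of a hairpin share a precursor, so their ratio compares steps after the hairpin is cut out. For Mir219a-2 this holds only in part, as miR-219a-5p also comes from Mir219a-1. The ratio of miR-219a-5p to miR-219a-2-3p ranged from −0.06 to 0.16 around the WT mean in WT mice and from −0.32 to 0.14 in Dgcr8+/- mice. The means differed by −0.16 (standard error 0.054, exact permutation p = 0.0115, adjusted p = 0.0138). This difference was lost without normalization, where it was −0.04 (exact permutation p = 0.444), and with cyclic loess, where it was −0.01 (exact permutation p = 0.92). On slide 1 it was 0.01 and on slide 2 it was −0.19. The ratio of miR-338-5p to miR-338-3p differed by −0.04 (standard error 0.093, 95% interval −0.24 to 0.16, exact permutation p = 0.741), and it took either sign over the ways of scaling. A difference between the arms was therefore not established for either hairpin.

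**Figure D4:**
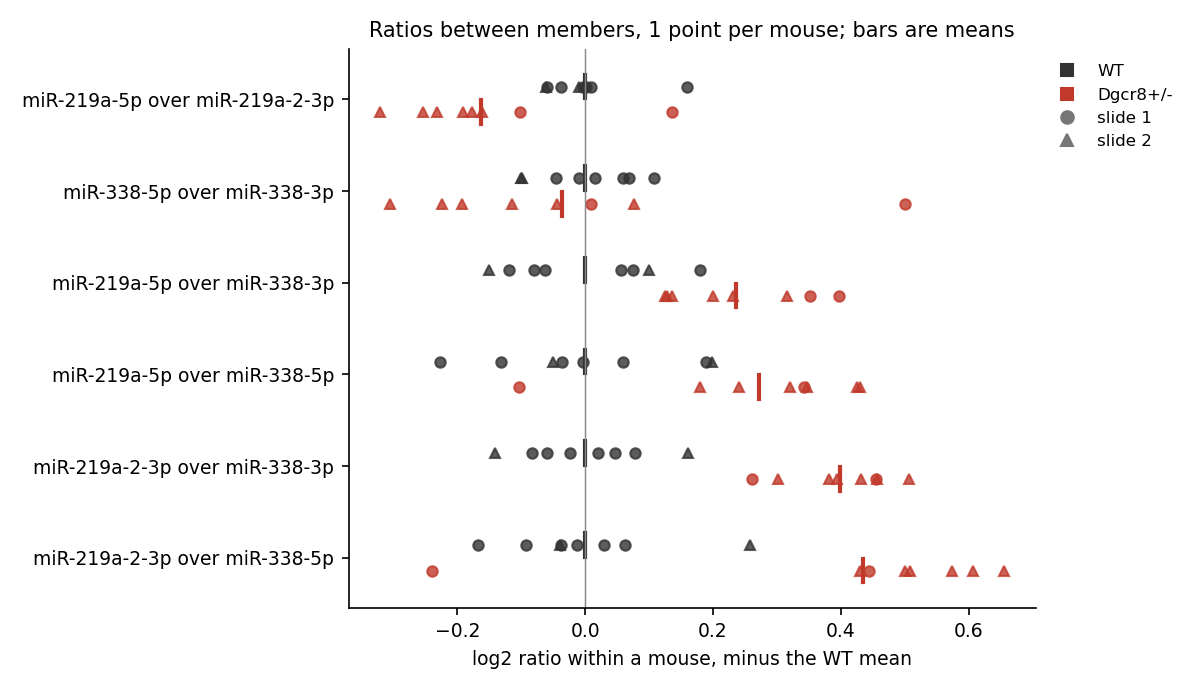
Log2 ratio of 2 members within each mouse, minus the mean of the WT mice, for the 6 pairs of members. Points are mice, circles slide 1 and triangles slide 2, and short bars are group means. The Dgcr8+/- means lay between 0.24 and 0.44 for the 4 ratios of a miR-219 to a miR-338 arm (without normalization 0.22 and 0.27, not past the threshold, for the 2 over miR-338-5p), while the arm ratios lay at −0.16 and −0.04, and the isolated right-hand Dgcr8+/- point in the miR-338 arm ratio, at 0.50, is replicate 2.

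The direction of the miR-219 arms changed with how the arrays were scaled, whereas their ratios to miR-338-3p were higher in Dgcr8+/- mice under each scaling tried. Without normalization, the median of all tested miRNAs moved by −0.39, and all 4 members had lower means in Dgcr8+/- mice, by −0.30 for miR-219a-5p, −0.26 for miR-219a-2-3p, −0.64 for miR-338-3p and −0.53 for miR-338-5p. With the arrays scaled to the labelling spike-ins, the differences were −0.29, −0.25, −0.64 and −0.52, respectively. Relative to the median of all tested miRNAs, both miR-219 arms were above it and both miR-338 arms below it under each of the 10 ways of processing. No normalization, 75th percentile and spike-in scaling differ only by a factor per array. They give the same ratios and the same distances from this median, so their agreement was fixed in advance. Without normalization, these distances were 0.09 for miR-219a-5p, 0.13 for miR-219a-2-3p, −0.25 for miR-338-3p and −0.14 for miR-338-5p. The ratio of miR-219a-2-3p to miR-338-3p differed by 0.39 without normalization and by 0.36 with cyclic loess. That of miR-219a-5p to miR-338-3p was less steady, at 0.24 after quantile normalization, 0.23 with normexp, 0.34 without normalization and 0.35 with cyclic loess. On slide 1 the ratio of miR-219a-2-3p to miR-338-3p differed by 0.36 and on slide 2 by 0.40, each with an exact permutation p of 0.0357, the smallest that the mice of 1 slide allow, and with the slide as a block by 0.38 (exact permutation p = 0.00128).

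**Figure D5:**
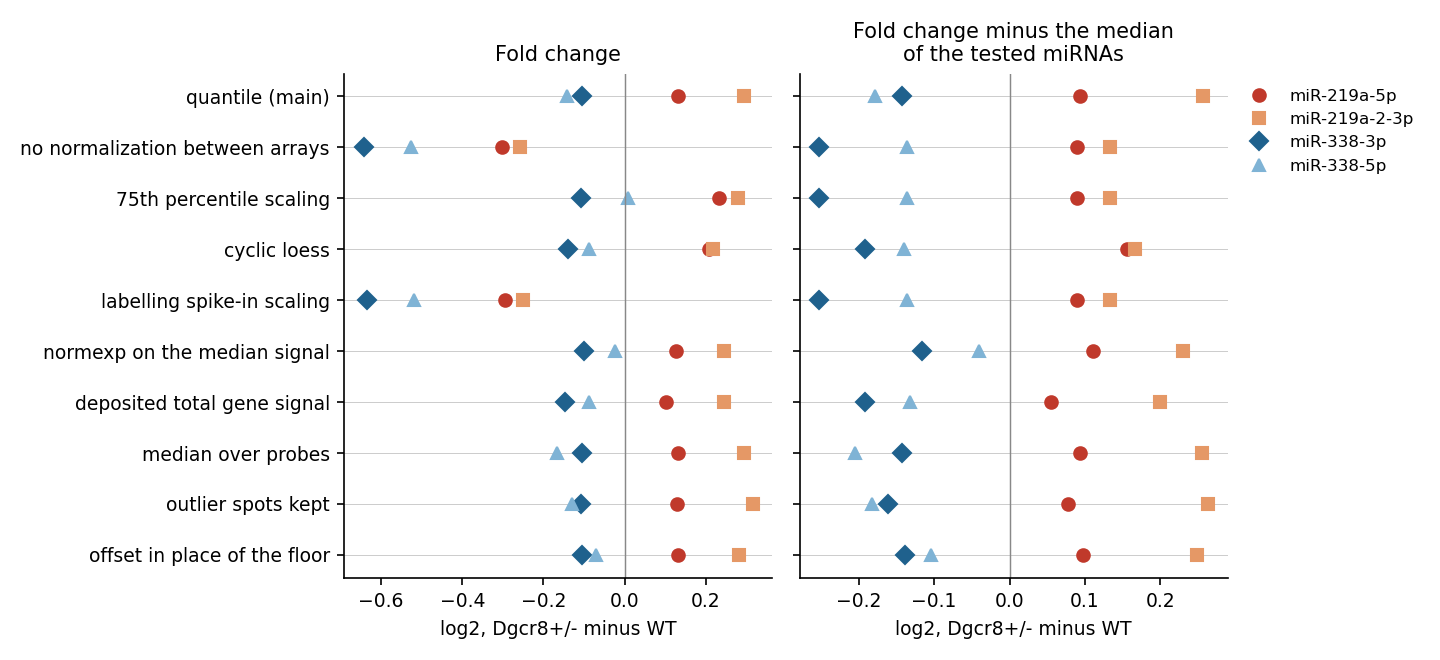
Log2 fold change (Dgcr8+/- minus WT) of the 4 members under each way of processing the arrays (left), and the same after subtracting the median of all tested miRNAs in that setting (right). On the left, both miR-219 arms turned from positive to negative without normalization and with spike-in scaling, and miR-338-5p reached 0.01 with 75th percentile scaling, whereas on the right the miR-219 arms lay at 0.06 to 0.26 and the miR-338 arms at −0.25 to −0.04.

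Mice differed from each other within a genotype, and pairs of members correlated. The share of all pairs of tested miRNAs with such an r was not computed, so this is not shown to be particular to the members. Over the 16 arrays, with genotype means subtracted, miR-219a-2-3p had an r of 0.90 with miR-21a-5p and 0.85 with miR-219a-5p. Over the 8 WT mice, miR-219a-5p and miR-219a-2-3p correlated with r = 0.95 (exact permutation p = 9.92e-05, adjusted p = 0.00119 over 12 relations) and Spearman's rho = 0.99 (exact permutation p = 9.92e-05, adjusted p = 0.00119). Without the 2 mice farthest from the median r was 0.88. In Dgcr8+/- mice r was 0.69 (exact permutation p = 0.0532, adjusted p = 0.0638) and rho 0.66 (exact permutation p = 0.0844, adjusted p = 0.113), and r was 0.12 without the 2 farthest mice. Dgcr8+/- replicate 2 stayed in that smaller set. Over the 16 arrays with genotype means subtracted, the r of 0.85 between these arms became 0.94 without replicate 2. The low value of 0.12 therefore does not show that the relation rested on the 2 farthest mice. MiR-219a-2-3p and miR-338-3p, which come from different chromosomes, correlated with r = 0.92 in WT mice (exact permutation p = 0.000893, adjusted p = 0.00397), with rho = 0.85 (exact permutation p = 0.0112, adjusted p = 0.0336) and with r = 0.76 without the 2 farthest mice. In Dgcr8+/- mice r was 0.87 (exact permutation p = 0.0026, adjusted p = 0.00781) and rho 0.90 (exact permutation p = 0.00456, adjusted p = 0.0274), and r was 0.89 without the 2 farthest mice.

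Over the 6 pairs of members, Pearson's r had an adjusted p below 0.05 in 6 pairs in WT mice and in 2 pairs in Dgcr8+/- mice, and Spearman's rho in 3 pairs and 1 pair. The difference between the genotypes was not tested, and such counts were not computed for all pairs of tested miRNAs. The count in Dgcr8+/- mice depends on single mice. For miR-219a-2-3p and miR-338-5p, r was 0.10 in Dgcr8+/- mice and 0.91 without the 2 farthest mice. Over the 16 arrays with genotype means subtracted, their r was 0.34, and 0.75 without Dgcr8+/- replicate 2. The arms of miR-338 gave r = 0.82 in WT mice (exact permutation p = 0.0292, adjusted p = 0.0439), with rho = 0.43 (exact permutation p = 0.299, adjusted p = 0.359) and r = 0.59 without the 2 farthest mice. In Dgcr8+/- mice they gave r = 0.35 (exact permutation p = 0.404, adjusted p = 0.441), with rho = 0.24 (exact permutation p = 0.582, adjusted p = 0.635) and r = 0.59 without the 2 farthest mice.

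Of the 4 members, 3 also correlated with the brightness of the array in WT mice by Pearson's r, while no Spearman's rho was past the threshold after adjustment. This relation was not computed for the other tested miRNAs, so it is not shown to be particular to the members. The median log2 signal of an array before normalization correlated with the normalized signal of miR-219a-2-3p with r = 0.92 in WT mice (exact permutation p = 0.00506, adjusted p = 0.0202 over 8 relations), with rho = 0.77 (exact permutation p = 0.0323, adjusted p = 0.158) and with r = 0.62 without the 2 farthest arrays. For miR-338-3p r was 0.90 (exact permutation p = 0.00392, adjusted p = 0.0202), rho was 0.74 (exact permutation p = 0.0458, adjusted p = 0.158), and r was 0.92 without the 2 farthest arrays. For miR-219a-5p r was 0.82 (exact permutation p = 0.0114, adjusted p = 0.0304) and 0.59 without the 2 farthest arrays, and for miR-338-5p r was 0.63 (exact permutation p = 0.107, adjusted p = 0.214) and 0.26 without them. In Dgcr8+/- mice the same r was 0.45 for miR-219a-2-3p (exact permutation p = 0.265, adjusted p = 0.353) and 0.01 for miR-338-3p (exact permutation p = 0.987, adjusted p = 0.987). With this brightness as a covariate, a fit added after the data were seen, the log2 fold change was 0.50 for miR-219a-2-3p (adjusted p = 0.000891 from limma) and −0.01 for miR-338-3p (adjusted p = 0.941 from limma). Brightness itself differed between the genotypes, at 5.80 to 6.31 in WT and 5.27 to 5.91 in Dgcr8+/- arrays (exact permutation p = 0.00171). The fit also used a common slope, although r was unlike in the 2 genotypes. It therefore cannot separate genotype from brightness.

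The miRNAs whose signals were most like each member were found over the 16 arrays after the genotype means were subtracted. They share the arrays and their brightness with the members, and the values of r are a description. MiR-219a-5p was most like miR-32-5p (r = 0.87), miR-27b-3p (r = 0.84) and miR-15a-5p (r = 0.80). MiR-219a-2-3p was most like miR-21a-5p (r = 0.90), miR-100-5p (r = 0.89) and miR-181b-5p (r = 0.87). MiR-338-3p was most like miR-15a-5p (r = 0.87), miR-350-3p (r = 0.83) and miR-23b-3p (r = 0.83), and miR-338-5p was most like miR-26b-5p (r = 0.81), miR-27b-3p (r = 0.81) and miR-181c-5p (r = 0.80). The 2 miR-219 arms had an r of 0.85 with each other, and the 2 miR-338 arms had an r of 0.47, which was 0.72 without Dgcr8+/- replicate 2. MiR-338-3p had an r of 0.84 with miR-219a-5p and 0.87 with miR-219a-2-3p. Some members were thus as close to each other as to the miRNAs listed.

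Other miRNAs with a described role in the oligodendrocyte lineage did not move one way. Of 14 such miRNAs on the array 13 were tested, and 2 were lower, 2 were higher and 9 were not past the threshold. These counts stand beside 27.9% lower and 28.3% higher among all 495 tested miRNAs. Their median log2 fold change was 0.09, against 0.04 for all tested miRNAs. MiR-7a-5p, which is found in oligodendrocyte precursors, had a log2 fold change of −0.30 (adjusted p = 0.00753 from limma). MiR-204-5p, which is also abundant in the choroid plexus, had −0.29 (adjusted p = 0.0136 from limma). MiR-125a-3p, which restrains the maturation of the precursors, had 0.22 (adjusted p = 0.00194 from limma), and miR-138-5p, which is induced with miR-219 and miR-338 when oligodendrocytes differentiate, had 0.21 (adjusted p = 0.00123 from limma).

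Of 10 other miRNAs linked to dopamine receptors 8 were tested, and 3 were lower, 2 were higher and 3 were not past the threshold, with a median of −0.14. Over all tested miRNAs, 27.9% were lower and 28.3% higher. The 3 that were lower, miR-674-3p (−0.65), miR-382-3p (−0.63) and miR-153-5p (−0.60), are those the study selected on these same samples, so their direction is not independent evidence. The 2 that were higher were miR-326-3p (log2 fold change 0.25, adjusted p = 0.00181 from limma) and miR-16-5p (0.15, adjusted p = 0.0196 from limma). The fold change of miR-338-3p, −0.11, was closer to 0 than those of the miRNAs that were lower.

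Markers of the other cell types of the wall were set beside the members, since the share of each cell type in a sample can differ. Of the 5 tested miRNAs of ciliated cells, from the miR-34b/c and miR-449 families, 0 passed the threshold, with log2 fold changes of 0.15 to 0.35, and 2 of the 7 on the list were not tested. The log2 of their summed signal ranged from 9.08 to 10.33 in WT and from 9.76 to 10.61 in Dgcr8+/- mice. Of the 3 tested choroid plexus markers, 1 was lower and 1 was higher. Of the 4 blood vessel markers, 2 were higher, and of the 7 neuronal markers 1 was lower. Of the 4 microglial and immune markers and of the 3 red blood cell markers, 1 each was lower. Over all tested miRNAs the shares were 27.9% lower and 28.3% higher. The log2 of the summed signal of the neuronal markers was 15.14 to 15.26 in WT and 15.17 to 15.27 in Dgcr8+/- mice. Between the genotype means, the summed signal differed by 0.31 for the ciliated cell markers and by −0.19 for the choroid plexus markers. It differed by −0.13 for red blood cell, −0.11 for microglial and immune, 0.03 for blood vessel and 0.01 for neuronal markers. The part of these differences in the results on miR-219 and miR-338 was not tested.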

How the data were processed

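Total RNA (100 ng) from the LV wall was labelled with Cy3 and hybridized to 1-colour Agilent mouse miRNA arrays, 1 mouse per array. The deposited scanner files hold the intensity of each spot, corrected for background by Agilent Feature Extraction (version 10.5.1.1 in the submitters' processing notes and 10.7.3.1 in the file headers) and not normalized between arrays, and the authors' table holds the total gene signal per miRNA, an intensity equal to that of the scanner files. From the spot intensities, control spots and those marked as outliers were dropped, the remaining spots were averaged per probe, and 4415 probes were quantile-normalized. Probe values were averaged per miRNA, floored at 1 unit and put on the log2 scale. MiRNAs detected on at least 8 of 16 arrays were tested (495) with limma 3.58.1 in R 4.3.3, with Benjamini-Hochberg adjustment. Single values and within-mouse log2 ratios were compared by exact permutation of the 16 mice (12870 groupings, 2-sided). Within-genotype correlations were computed in Python 3.11.15 with all orders of the 8 mice. The limma step was tested on simulated data. Mature sequences and loci came from RefSeq (GRCm38.p6). No spot was saturated, and the number of arrays limits the precision.

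The members and lists were chosen with earlier results of these data known. The text names the 4 members, the other entries of their hairpins and up to 4 miRNAs past the threshold in each of 2 lists. For each member it also names the 3 tested miRNAs with the highest correlation, the other members left out. The alternatives were other scaling and background correction, spot and probe rules, the slide as a block, each slide alone, array weights, the methods' t-test, a replicate block and leaving out each mouse. The array brightness as a covariate, and the 4 ratios of miR-219 to miR-338 with their alternatives, were added after the data were seen.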

Additional observations from a re-analysis of the deposited data

Results flagged for a closer look

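In each genotype, the 4 log2 signals and the 2 arm ratios were searched for a mouse that lay far from the other 7 by Dixon's ratio. Of the 12 groups of 8 mice searched, 3 held such a mouse, where chance gives 0.6. For miR-338-5p, WT replicate 5 had a log2 signal of 4.52 and the other WT mice 4.10 to 4.25. For the log2 ratio of miR-219a-5p to miR-219a-2-3p, WT replicate 3 had 4.20 and the other WT mice 3.98 to 4.05. For the log2 ratio of miR-338-5p to miR-338-3p, Dgcr8+/- replicate 2 had −6.90 and the other Dgcr8+/- mice −7.70 to −7.32.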

How the results depend on the processing

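The exact permutation test allows no p below 0.000155 with 16 mice or below 0.0357 within 1 slide, so a loss within 1 slide says little. Without normalization, the log2 fold changes were −0.30 for miR-219a-5p, −0.26 for miR-219a-2-3p, −0.64 for miR-338-3p and −0.53 for miR-338-5p, and 293 miRNAs were lower and 0 higher (limma, also 0 higher at an unadjusted p below 0.05). With spike-in scaling they were −0.29, −0.25, −0.64 and −0.52, with 264 lower and 0 higher (limma, again 0 unadjusted). With 75th percentile scaling miR-219a-5p was at 0.23 and miR-338-5p at 0.0088. The arm difference of miR-219 was −0.045 under each of these 3 settings, −0.010 with cyclic loess, −0.12 with normexp, −0.091 with the slide as a block, 0.0051 within slide 1 and −0.19 within slide 2. The arm difference of miR-338 was 0.12 under the same 3 settings, 0.052 with cyclic loess, 0.076 with normexp, 0.059 with the deposited total gene signal, 0.033 with an offset in place of the floor, 0.094 with the slide as a block and 0.22 within slide 1. Within slide 1 the values were 0.27 for miR-219a-2-3p, 0.13 for miR-338-5p, 0.37 for miR-219a-5p over miR-338-3p and 0.36 for miR-219a-2-3p over miR-338-3p, and 89 miRNAs were higher. Within slide 2 they were 0.27 for miR-219a-2-3p and 0.21 and 0.40 for these ratios. With array weights miR-338-5p was at −0.19 and past the threshold (adjusted p = 0.0317 from limma). With the array brightness as a covariate, added after the data were seen, 86 miRNAs were lower and 70 higher. The causes were not tested.

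Leaving out each mouse in turn, miR-338-5p ranged from −0.21 (without Dgcr8+/- replicate 2) to −0.088 and the arm difference of miR-338 from −0.11 to 0.00167 (without Dgcr8+/- replicate 3). The calls for miR-219a-2-3p (0.26 to 0.34), miR-219a-5p (0.09 to 0.18), miR-338-3p (−0.14 to −0.07), the arm difference of miR-219 (−0.21 to −0.14) and the ratio of miR-219a-2-3p to miR-338-3p (0.38 to 0.42) were the same in all 16 such fits. The ratio of miR-219a-2-3p to miR-338-3p was between 0.35 and 0.42 over its 12 other alternatives, and its call was the same in 10 of them, the exceptions being the 2 single slides. No normalization, 75th percentile and spike-in scaling are among these alternatives and give the same ratio by construction. The call was the same in 5 of 12 for miR-219a-5p over miR-338-5p and in 7 of 12 for miR-219a-2-3p over miR-338-5p. The replicate numbers were not taken to pair the arrays, since the deviations of same-numbered arrays had correlations of −0.14 to 0.50, 5 of 8 above 0.1, and 3 of 8 WT arrays closest to the array of their own number. With the replicate block, miR-219a-2-3p stayed at 0.29 (adjusted p = 0.00308 from limma), and 140 miRNAs were lower and 147 higher.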
